A study of Mus musculus with 12 samples.

Results

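The proteasome genes were taken by name, as the protein-coding genes called Psma, Psmb, Psmc, Psmd, Psme, Psmf or Psmg followed by a number, and 48 of the 55401 listed genes met the rule. Their mRNAs were counted in hearts of adult mice of 2 genotypes, wild type (WT) and Rpl3l-/- (KO), which lacks the striated-muscle paralog of the ribosomal protein gene Rpl3. Each genotype was measured in 2 fractions with 3 biological replicates, 12 libraries in all. Input is poly(A) RNA from total heart RNA, and IP is poly(A) RNA that came down with ribosomes on an antibody against the HA tag, from hearts treated with cycloheximide, a blocker of translation. Input RNA was purified with TRIzol and IP RNA on columns, so the fraction and the purification method change together. The labels name neither the tagged protein, the promoter that drives it nor the cells that carry it, and give no strain, sex or age beyond adult. Whether any heart gave both kinds of library is not stated.

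The proteasome is the barrel-shaped protease that degrades proteins marked with ubiquitin. Its 20S core stacks rings of alpha subunits (Psma genes), which form the gate, around rings of beta subunits (Psmb genes), some of which carry the cutting sites. The 19S cap sits on the gate, recognises ubiquitin, removes it and unfolds the substrate. The base of the cap holds ATPases (Psmc genes), the large scaffold subunits Psmd1 and Psmd2, and Psmd4. The lid of the cap holds the other Psmd subunits. Activators of the Psme family can take the place of the cap, Psmf1 encodes an inhibitor of the core, and the Psmg chaperones with Psmd5, Psmd9 and Psmd10 help to assemble the particle. In heart muscle the proteasome turns over sarcomere proteins tagged by muscle ubiquitin ligases.

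Library totals ran from 169359 counts in KO Input replicate 3 to 710868 in KO IP replicate 2, and the 48 genes took 0.452% to 0.560% of each library. A gene passed the filter on low counts in 41 of 48 cases. The 7 that did not pass were Psma8, a testis variant of an alpha subunit, the replacement subunits Psmb8, Psmb9, Psmb10 and Psmb11, and the chaperones Psmd5 and Psmg3. Rpl3l had 182, 158 and 156 counts in WT IP and 1, 2 and 5 in KO IP. In Input it had 89, 125 and 83 counts in WT and 18, 7 and 9 in KO, so the KO Input libraries kept a low count of the targeted gene. Globin genes took 17.3% of WT IP replicate 2 and 13.8% of WT Input replicate 3, against 1.70% to 6.98% of the other libraries. Of 8 cardiomyocyte markers, 7 were measured and their summed level ran from 49279 to 60345 CPM (counts scaled to a common library size with TMM factors), while Actc1, the cardiac actin gene, was listed at 0 in every library.

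Summed over all 48 genes, the proteasome mRNA level was close in the 4 groups. It was 5293, 5447 and 5168 CPM in the WT Input libraries and 5267, 5782 and 4604 in KO Input. The ribosome-bound level was 5349, 5419 and 5041 CPM in WT IP and 5544, 4612 and 5066 in KO IP. All 4 groups overlapped, and the KO groups spread most.

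The class medians of the level differed by role, with ranges that overlapped between most classes. Without division by length, the medians were 222.4 CPM for beta genes, 163.5 for alpha genes and 131.1 for base ATPase genes. The 3 other base genes had a median of 134.1 CPM, the lid genes 93.7 and the activators 93.2. Psme4, at 6491 bases, ranked 7 by CPM and 34 per kilobase. The order of some classes and genes thus depends on the division by length. Per kilobase of transcript, the 7 core beta genes had a median of 210.2 CPM per kb, averaged over the 12 libraries, and the 7 alpha genes 140.4. The beta genes ran from 113.8 to 279 CPM per kb and the alpha genes from 29.1 to 222. The 6 base ATPase genes had a median of 65.3 CPM per kb, the 3 other base genes 53.9, the 8 lid genes 49.0 and the 4 activators 43.4. The activator Psme1, at 112.4 CPM per kb, stood above every lid gene. The 3 tested Psmg chaperones had a median of 32.3 CPM per kb, and the 2 tested base chaperones 9.93. Psmb6, Psmb5 and Psmb4 led the order at 279, 275 and 259.7 CPM per kb, and Psma7 came next at 222. The tested gene at the bottom per kilobase was Psmf1, the inhibitor, at 4.40 CPM per kb. In plain CPM the lowest tested gene was Psmd10 at 15.9, with Psmf1 next at 16.8. Psma3 and Psma2 ranked low among the alpha genes on this scale, at 29.1 and 64.8 CPM per kb, where the longest annotated transcripts of 2846 and 2911 bases set the divisor. Within a group the median coefficient of variation of a tested gene was 15.6% in WT Input, 23.9% in KO Input, 11.2% in WT IP and 19.7% in KO IP. Neighbours in the order such as Psmb6, Psmb5 and Psmb4 lie closer together than that spread.

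**Figure D1:**
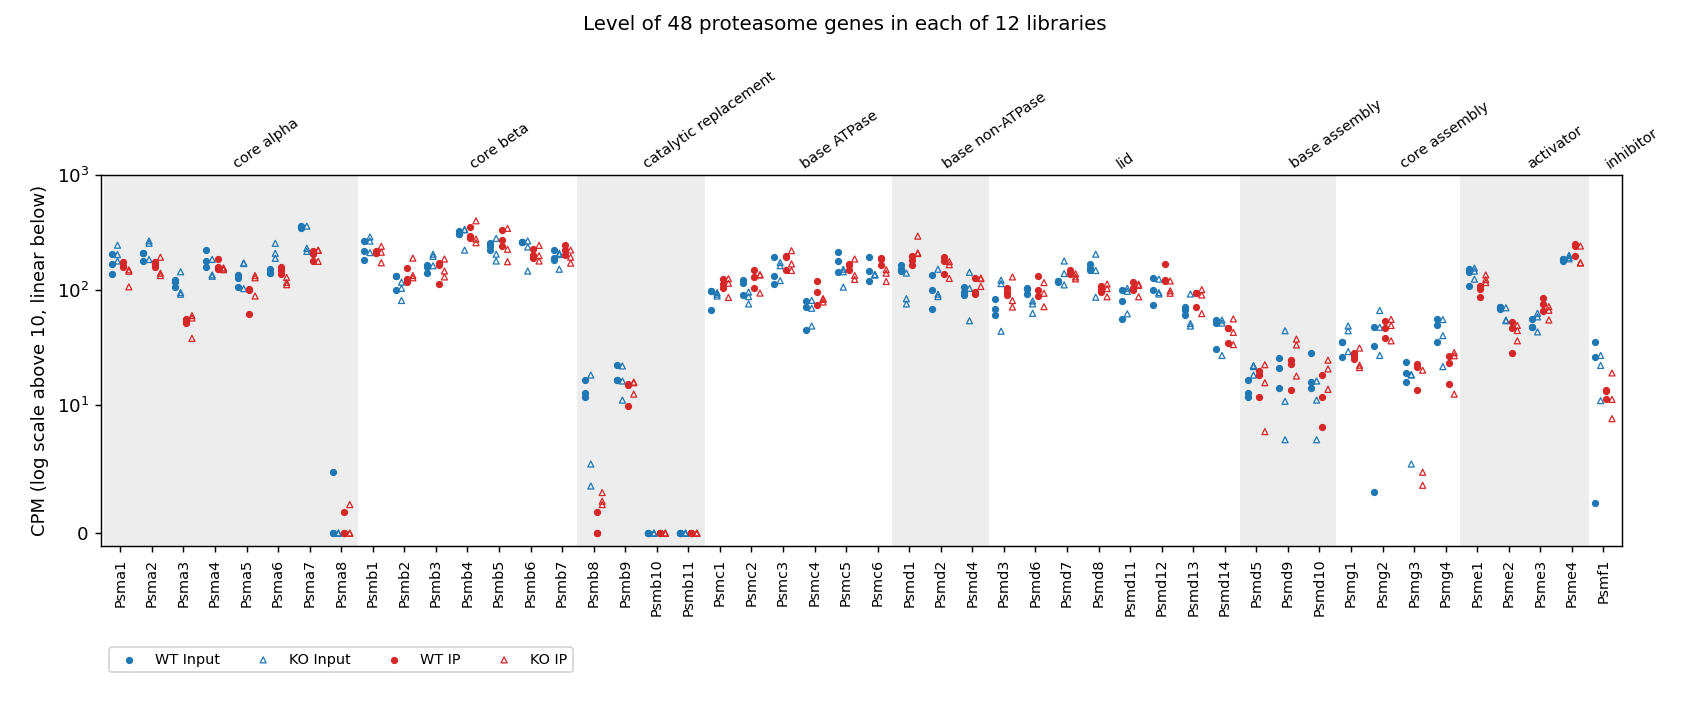
Level of each of the 48 proteasome genes in each library (y axis, CPM on a log scale above 10 and linear below), ordered by role; blue marks Input and red IP, circles WT and triangles KO. The 14 tested core genes lie above 30 CPM in every library, the chaperones, Psmf1 and Psmb9 lie mostly between 5 and 60 CPM, and Psmb10 and Psmb11 are listed at 0.

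The first question is whether loss of Rpl3l goes with other levels of proteasome mRNAs. No member passed the test in either fraction. In Input, 0 of 41 members had an adjusted p under 0.05 in edgeR's quasi-likelihood test, where 0.182% of the 6596 genes tested did, and 2 had an unadjusted p under 0.05, where 7.11% of all genes did. In IP, 0 of 41 passed, where 0.0910% of all genes did, and 1 had an unadjusted p under 0.05, where 5.20% of all genes did. DESeq2 and limma-voom also called 0 members in both fractions. The median KO minus WT log2 difference of the members was 0.02 in Input and -0.04 in IP, beside -0.01 and 0.00 over all genes tested. The 95% interval of a member's difference reached a median of 0.51 to either side on the log2 scale in Input and 0.42 in IP. Shifts smaller than that were mostly not detectable at this depth. These intervals are not adjusted for the number of genes tested, so larger shifts could also go uncalled. In Input, Psma6 at 0.56 and Psmd1 at -0.59 did not pass. On simulated counts, a change of 1 in IP was recovered in 45.4% of genes.

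In Input, Psma6 and Psmd1 had the smallest unadjusted p, 0.00675 and 0.0225. In IP these were Psmc6, a base ATPase, and again Psmd1, at 0.0341 and 0.0571. Psmc6 was at 190.1, 185 and 163 CPM in WT IP and 149.8, 118 and 139.7 in KO IP, a log2 difference of -0.41 ± 0.18 (SE) with an adjusted p of 0.92. The KO libraries all lay below the WT libraries for this gene in IP. In Input its values were 147, 120.0 and 192 CPM in WT and 135, 136 and 135 in KO, and they overlapped.

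For Psma6 and Psmd1 the KO and WT libraries lay apart in opposite directions in the 2 fractions, although no genotype test of either passed. Psma6, an alpha ring subunit (ENSMUSG00000021024.14, chr12:55384222-55418454, GRCm38), was at 139.9, 153 and 141 CPM in WT Input and 208, 188 and 254 in KO Input. In IP it was at 148, 159 and 138 CPM in WT and 116, 128 and 111 in KO. The KO libraries thus lay above WT in Input and below WT in IP, without overlap in either fraction. The KO minus WT log2 difference of Psma6 was 0.56 ± 0.19 in Input (adjusted p = 0.504, edgeR) and -0.31 ± 0.17 in IP (adjusted p = 0.964).

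Psmd1, the larger scaffold of the base (ENSMUSG00000026229.17, chr1:86064387-86139151, GRCm38), went the other way. It was at 145, 151 and 164 CPM in WT Input and 84.0, 140.1 and 75.6 in KO Input. Its IP values were 182, 198 and 165 CPM in WT and 293, 207 and 209 in KO. The KO libraries lay below WT in Input and above WT in IP, again without overlap. The KO minus WT log2 difference of Psmd1 was -0.59 ± 0.24 in Input (adjusted p = 0.626, edgeR) and 0.37 ± 0.19 in IP (adjusted p = 0.943). Crossing without overlap in both fractions was seen in 2 of 41 members and in 0.849% of all genes.

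The test of the crossing itself is the interaction term, which subtracts the WT log2 ratio of IP to Input from that of KO. It was -0.87 ± 0.26 for Psma6 with an adjusted p of 0.399 and an unadjusted p of 0.00242. For Psmd1 it was 0.96 ± 0.30 with an adjusted p of 0.442 and an unadjusted p of 0.00427. Neither passed the threshold. Over the members 0 of 41 passed, where 0.0910% of all genes did, and these 2 were the only members with an unadjusted p under 0.05, where 7.02% of all genes had one. DESeq2 and limma-voom called 0 members as well.

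Other members separated the genotypes in 1 fraction. In Input, KO lay wholly above WT for 1 of 41 members (6.29% of all genes), Psma6, and wholly below for 2 (6.0% of all genes), Psmd1 and the lid gene Psmd6. In IP, KO lay wholly above WT for 2 members (5.26% of all genes), Psmd1 and Psme1, and wholly below for 4 (5.72% of all genes), Psma1, Psma6, Psmc6 and Psmd12. These genes come from the alpha ring, the base, the lid and the activators.

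**Figure D2:**
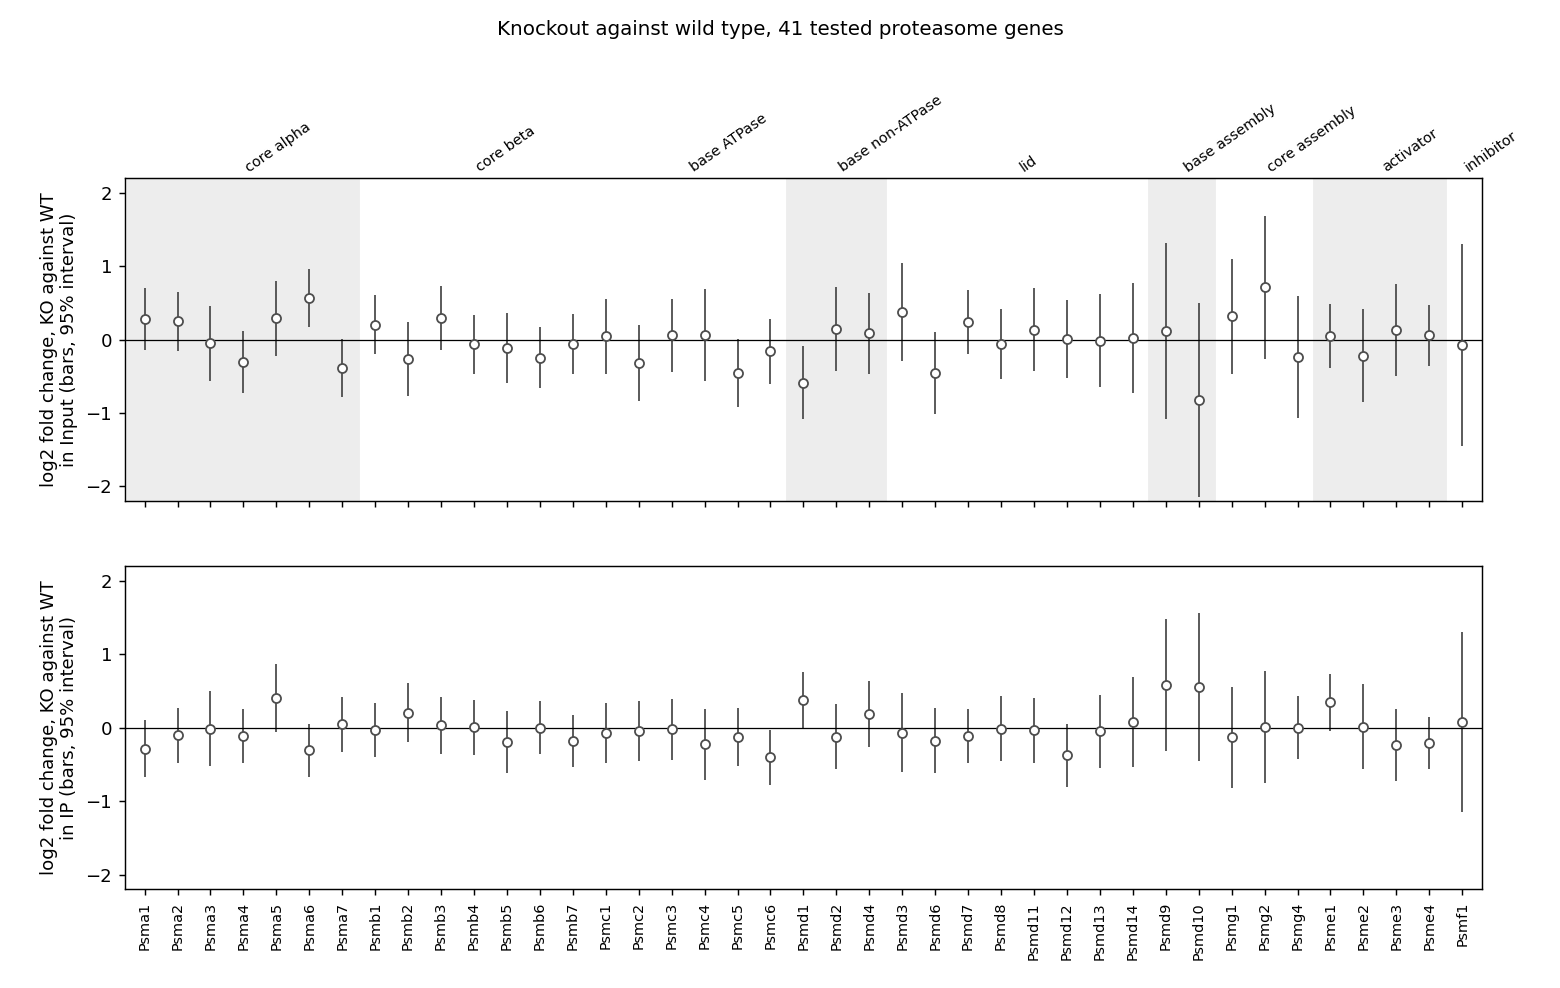
KO against WT log2 fold change of the 41 tested proteasome genes in Input (upper panel) and IP (lower panel), with points for edgeR estimates and bars for 95% intervals, ordered by role. The intervals exclude 0 for 2 genes in Input and 1 in IP, no gene passed the adjusted threshold, and Psma6 and Psmd1 lie on opposite sides of 0 in the 2 panels.

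The second question is how the ribosome-bound fraction differed from total RNA. In the mean of both genotypes, 10 of 41 members passed the test. Psmd1 and Psmd2, the 2 scaffold subunits of the base, were higher in IP, which is 2 of 41 where 13.5% of all genes were higher. Lower in IP were 8 of 41, where 15.7% of all genes were lower: Psma2, Psma3, Psma5, Psma6 and Psma7 of the alpha ring, the lid gene Psmd8, the chaperone gene Psmg4 and the activator gene Psme2. The members' median log2 difference was 0.09, beside 0.02 over all genes tested. With counts scaled by library totals alone, the median of all genes rose to 0.13, and 4 members were called higher and 4 lower. The share of all genes called in that fit is not given here, so these counts have no background beside them.

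The alpha and beta rings of the core had different values. All 7 tested alpha genes had IP minus Input values below 0, with a median of -0.45 and 5 called. Of these calls, only that of Psma3 held under every alternative analysis. The 7 beta genes had a median of 0.00, ranging from -0.23 for Psmb6 to 0.33 for Psmb2, and 0 were called. The beta gene with the highest level, Psmb4, was at 308, 327 and 305 CPM in WT Input, 332, 336 and 222 in KO Input, 285, 349 and 293 in WT IP and 398, 257 and 276 in KO IP. Its 4 groups overlapped, and its log2 difference was 0.00 ± 0.13 (95% interval -0.27 to 0.28). Psmb2, the beta gene with the smallest p, was at 133, 132 and 99.4 CPM in WT Input, 117, 103 and 81.1 in KO Input, 123, 155 and 116 in WT IP and 127, 133 and 189 in KO IP (adjusted p = 0.119, edgeR). In KO its IP libraries lay above Input, and in WT they overlapped.

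Psma3 had the lowest value in the mean of both genotypes among the 41 tested members. It encodes an alpha ring subunit (ENSMUSG00000060073.9, chr12:70974621-70996347, GRCm38) and was at 107, 118 and 122 CPM in WT Input and 94.9, 144 and 91.9 in KO Input. In IP it was at 53.9, 51.2 and 55.6 CPM in WT and 38.0, 59.9 and 57.1 in KO. All 6 IP libraries lay below all 6 Input libraries. The log2 difference was -1.09 ± 0.18 in the mean of both genotypes (fold 0.469, adjusted p = 3.83e-05, edgeR), -1.11 ± 0.24 in WT (adjusted p = 0.0023) and -1.07 ± 0.26 in KO (adjusted p = 0.0046). The call in the mean and in WT held in every alternative analysis, 24 and 25 in number, and the KO call was lost only without KO Input replicate 2 (adjusted p = 0.0751).

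Psma7 was the alpha gene with the highest level (ENSMUSG00000027566.15, chr2:180036374-180042433, GRCm38). It was at 351, 348 and 362 CPM in WT Input, 230.0, 358 and 216 in KO Input, 219.9, 203 and 177 in WT IP and 221, 177 and 221 in KO IP. The WT groups did not overlap, while in KO Input replicate 3 lay within the IP range. The log2 difference of Psma7 was -0.61 ± 0.13 in the mean (adjusted p = 0.00106, edgeR), -0.83 ± 0.18 in WT (adjusted p = 0.00258) and -0.40 ± 0.19 in KO (adjusted p = 0.17).

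The other alpha genes had smaller differences in the mean. Psma2 was at 209, 209 and 179.5 CPM in WT Input, 266, 254 and 184 in KO Input, 167, 157 and 173 in WT IP and 192, 139.7 and 133 in KO IP, with a mean log2 difference of -0.45 ± 0.13 (adjusted p = 0.0127, edgeR). Psma5 was at 128, 134 and 106 CPM in WT Input, 172, 169.6 and 103 in KO Input, 62.4, 102 and 99.3 in WT IP and 127, 88.5 and 133 in KO IP, with a mean log2 difference of -0.45 ± 0.17 (adjusted p = 0.0481). For both genes the WT groups did not overlap and the KO groups did. Psma6, with the library values given above, differed by -0.41 ± 0.13 in the mean (adjusted p = 0.0179, edgeR), by 0.02 ± 0.18 in WT (adjusted p = 0.951) and by -0.85 ± 0.19 in KO (adjusted p = 0.00226). Psma1 was at 168, 207 and 138 CPM in WT Input, 245, 203 and 178 in KO Input, 159, 160.2 and 173 in WT IP and 145, 149.7 and 106 in KO IP, and it passed in KO (log2 -0.65 ± 0.20, adjusted p = 0.0286) and not in the mean (adjusted p = 0.0507). In WT, Psma1 overlapped between the fractions. The call of Psma5 rested on most libraries, since leaving out any 1 of 9 raised its adjusted p to between 0.0517 and 0.164. That of Psma6 was lost without WT IP replicate 3, KO IP replicate 3 or KO Input replicate 3, at adjusted p of 0.0504 to 0.0578, and that of Psma2 without KO IP replicate 3 (adjusted p = 0.0534). In KO, the call of Psma1 was lost without KO IP replicate 3, KO Input replicate 1 or KO Input replicate 2 (adjusted p of 0.0699 to 0.178), and that of Psma2 without KO IP replicate 2 or any of those 3 (0.109 to 0.143). The mean calls of Psma5 and Psma6 were also lost with the DESeq2 test, with library totals and with no count filter. The mean call of Psma2 was lost with library totals, with no count filter and in thinned libraries. Those settings for Psma2 also lost the KO calls of Psma1 and Psma2, and the DESeq2 test lost the KO call of Psma1.

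In the 19S cap, 14 of 17 genes had values above 0. The base ATPase genes had a median of 0.28, 5 of 6 above 0 and 0 called. Psmc2 came nearest, at 90.1, 115 and 122 CPM in WT Input, 87.6, 95.9 and 75.6 in KO Input, 131, 149 and 104 in WT IP and 93.9, 136 and 135 in KO IP (log2 0.36 ± 0.16, adjusted p = 0.0881, edgeR). Psmc3, the ATPase gene with the highest level, was at 133, 113 and 192 CPM in WT Input, 120.5, 162 and 173 in KO Input, 194, 197 and 149.8 in WT IP and 219, 168 and 148 in KO IP. Both genes overlapped between the fractions in both genotypes.

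Psmd1 had the highest value in the mean of both genotypes among the 41 tested members. Its library values, given above with the genotypes, put all 6 IP libraries above all 6 Input libraries, although the lowest IP value of 165.0 CPM was close to the highest Input value of 163.5. The log2 difference was 0.72 ± 0.15 in the mean (fold 1.65, adjusted p = 0.000818, edgeR), 0.24 ± 0.20 in WT (adjusted p = 0.464) and 1.20 ± 0.23 in KO (fold 2.30, adjusted p = 0.000558). The calls in the mean and in KO held in all 24 and 25 alternative analyses. Psmd1 shares exon sequence with Gm21972 on the same strand, which had 0 to 3 counts a library, and with Htr2b on the opposite strand. Of the 48 members, 3 share exon sequence with a gene on their own strand and 10 others with one on the opposite strand alone, and whether the counting used strand is not stated in the labels.

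Psmd2, the other scaffold of the base and a docking site for shuttle factors (ENSMUSG00000006998.16, chr16:20651652-20663414, GRCm38), was at 68.8, 134 and 99.4 CPM in WT Input and 87.6, 151 and 91.9 in KO Input. In IP it was at 179, 193 and 136 CPM in WT and 165, 126 and 176 in KO. The WT groups did not overlap, with a narrow gap, and in KO Input replicate 2 lay within the IP range. The log2 difference was 0.61 ± 0.17 in the mean (adjusted p = 0.0108, edgeR), 0.74 ± 0.24 in WT (adjusted p = 0.0382) and 0.47 ± 0.26 in KO (adjusted p = 0.224). The WT call was lost without WT IP replicate 1, WT IP replicate 2, WT Input replicate 1 or WT Input replicate 3, with adjusted p of 0.102 to 0.248.

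The lid genes had a median of 0.23, with 6 of 8 above 0. Psmd8 was the lid gene that passed, and it fell. It was at 149, 155 and 167 CPM in WT Input, 204, 147 and 86.5 in KO Input, 96.5, 102 and 108 in WT IP and 103, 87.3 and 113 in KO IP. The WT groups did not overlap, and in KO the third Input library, the smallest of the study, lay below the 3 IP libraries. Its mean log2 difference was -0.60 ± 0.16 (adjusted p = 0.00548, edgeR), and without KO Input replicate 1 the adjusted p was 0.0501. Psmd7, the lid gene with the highest level, was at 116, 120.0 and 119 CPM in WT Input, 139, 111 and 178 in KO Input, 140.5, 137 and 149.8 in WT IP and 129.7, 125 and 138 in KO IP, and WT did not overlap while KO did.

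The activators split. Psme1 and Psme2 encode the alpha and beta subunits of the activator ring that interferon gamma induces, and both values were below 0. Psme2 was at 71.1, 68.2 and 70.5 CPM in WT Input, 54.8, 70.1 and 54.0 in KO Input, 46.8, 28.1 and 52.2 in WT IP and 49.2, 36.2 and 44.4 in KO IP. All 6 IP libraries lay below all 6 Input libraries, although the highest IP value of 52.2 CPM was close to the lowest Input value of 54.0. The mean log2 difference was -0.61 ± 0.21 (adjusted p = 0.0308, edgeR). Reads of Psme2 may be split with Psme2b, its near copy, which had 152 counts over the 12 libraries, 36 of them in WT IP replicate 2, where Psme2 had 17. Summed, the pair was at 109.1, 77.6 and 115.4 CPM in WT Input, 76.7, 110.6 and 91.9 in KO Input, 68.1, 87.6 and 65.7 in WT IP and 60.4, 42.4 and 84.1 in KO IP, and the fractions then overlapped. The call of Psme2 was lost without WT IP replicate 2, KO IP replicate 2, WT Input replicate 1 or KO Input replicate 2 (adjusted p of 0.0573 to 0.0915). It was lost in 11 of 24 alternative analyses, among them the DESeq2 test, library totals, no count filter and thinned libraries. Psme1 was at 152, 143 and 109 CPM in WT Input, 124, 155 and 146 in KO Input, 86.5, 107 and 103 in WT IP and 123, 116 and 135 in KO IP (mean log2 -0.33 ± 0.14, adjusted p = 0.0845). Its WT groups did not overlap and its KO groups did.

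Psme3, the nuclear activator, and Psme4, a large single-chain activator, had values above 0 that did not pass. Psme3 was at 47.4, 56.4 and 48.1 CPM in WT Input, 58.4, 62.7 and 43.2 in KO Input, 65.3, 85.9 and 75.8 in WT IP and 71.6, 54.9 and 66.7 in KO IP (mean log2 0.38 ± 0.19, adjusted p = 0.142). Psme4 was at 187, 186 and 179.5 CPM in WT Input, 186, 192 and 199.9 in KO Input, 249.7, 197 and 241 in WT IP and 172, 241 and 171 in KO IP (mean log2 0.17 ± 0.13, adjusted p = 0.359). For both genes the WT IP libraries lay above WT Input and the KO groups overlapped. Psmf1, the inhibitor, was at 26.1, 2.35 and 35.3 CPM in WT Input, 10.95, 22.1 and 27.0 in KO Input, 11.4, 13.2 and 13.5 in WT IP and 8.95, 11.2 and 19.04 in KO IP, from 1 to 12 counts a library (mean log2 -0.61 ± 0.45, adjusted p = 0.327).

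Among the chaperones Psmg4, which acts early in building the alpha ring, fell. It was at 49.8, 56.4 and 35.3 CPM in WT Input, 40.2, 55.3 and 21.6 in KO Input, 27.0, 23.1 and 15.2 in WT IP and 26.8, 12.5 and 28.6 in KO IP, from 4 to 24 counts a library. WT did not overlap and KO did. The log2 difference was -1.0 ± 0.28 in the mean (adjusted p = 0.00963, edgeR) and -1.13 ± 0.38 in WT (adjusted p = 0.0465). The call in the mean was lost without KO Input replicate 2 (adjusted p = 0.0598), and in WT without any 1 of 8 libraries (up to 0.178). Psmg2, another alpha ring chaperone, was at 47.4, 32.9 and 3.21 CPM in WT Input, 47.5, 66.4 and 27.0 in KO Input, 53.9, 38.0 and 47.1 in WT IP and 49.2, 36.2 and 55.5 in KO IP, and did not pass (mean log2 0.29 ± 0.30, adjusted p = 0.5). The base chaperone Psmd9 was at 14.2, 21.2 and 25.6 CPM in WT Input, 7.30, 44.2 and 10.8 in KO Input, 22.7, 24.8 and 13.5 in WT IP and 17.9, 37.4 and 33.3 in KO IP, from 2 to 30 counts, with overlap throughout.

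**Figure D3:**
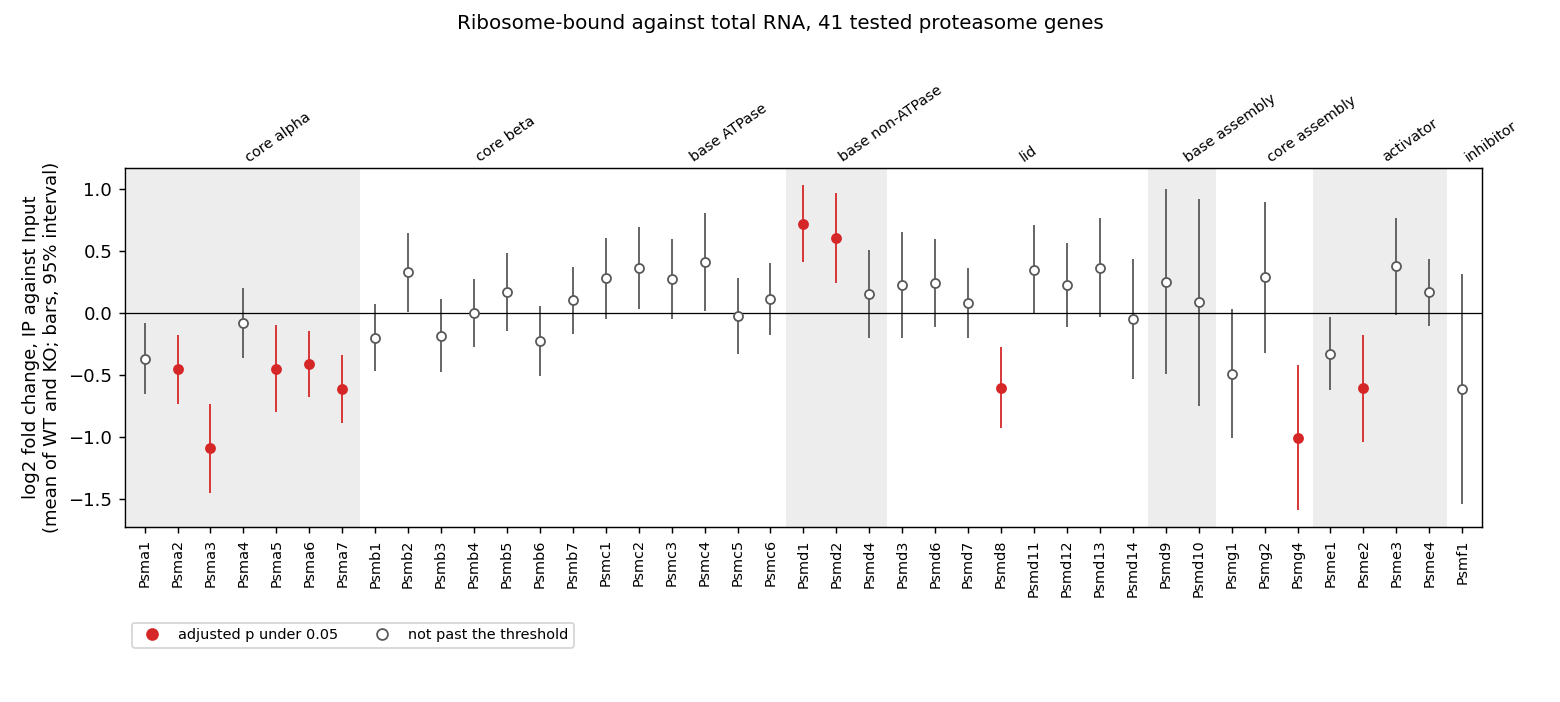
IP against Input log2 fold change of the 41 tested proteasome genes in the mean of WT and KO (points, edgeR estimates; bars, 95% intervals; red, adjusted p under 0.05), ordered by role. The 7 alpha genes lie below 0, the beta genes lie around 0, and most cap genes lie above 0, led by Psmd1 at 0.72 and Psmd2 at 0.61.

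Taken within a genotype, fewer members passed. In WT, 1 of 41 was higher in IP (5.37% of all genes), Psmd2, and 3 were lower (8.67% of all genes), Psma3, Psma7 and Psmg4. In KO, 1 was higher (6.64% of all genes), Psmd1, and 4 were lower (9.78% of all genes), Psma1, Psma2, Psma3 and Psma6. Library totals in place of TMM scaling gave 2 higher and 2 lower in KO, again without the share of all genes called in that fit. The WT count of 4 fell to 2 without WT IP replicate 1, WT IP replicate 2, WT Input replicate 1 or WT Input replicate 3. The KO count of 5 fell to 3 without KO IP replicate 3 or KO Input replicate 1 and to 2 without KO Input replicate 2. These counts too are given without the share of all genes called in the same fits, and have no background beside them. Only Psma3 passed in both genotypes, and the interaction reported above did not pass for any member. Libraries that did not overlap numbered more in WT, where IP lay wholly above Input for 9 of 41 members (16.8% of all genes) and wholly below for 9 (17.8% of all genes). In KO they were 2 higher (15.1% of all genes), Psmb2 and Psmd1, and 4 lower (15.5% of all genes), Psma1, Psma3, Psma6 and Psme2. Over all 12 libraries IP lay wholly above Input for 1 member (5.31% of all genes), Psmd1, and wholly below for 2 (6.81% of all genes), Psma3 and Psme2.

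Ratios of counts inside one library do not depend on how libraries are scaled, and they gave the same picture of the balance between the parts. For every 100 counts of the 20S core, the 17 cap genes had 64.1, 60.7 and 71.5 counts in WT Input and 55.8, 60.4 and 71.3 in KO Input. In IP they had 90.9, 82.3 and 83.5 in WT and 80.6, 88.9 and 85.9 in KO. The 6 IP libraries lay above the 6 Input libraries, and they still did with any 1 of the 32 genes left out. For every 100 beta counts there were 85.4, 88.3 and 83.4 alpha counts in WT Input and 83.1, 92.7 and 100.9 in KO Input. In IP there were 65.2, 59.5 and 72.1 in WT and 57.4, 73.6 and 62.4 in KO, again without overlap. This second separation rested on Psma7, since without it the IP range of 44.6 to 59.4 met the Input range of 58.3 to 82.2. Neither ratio separated WT from KO in either fraction.

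**Figure D4:**
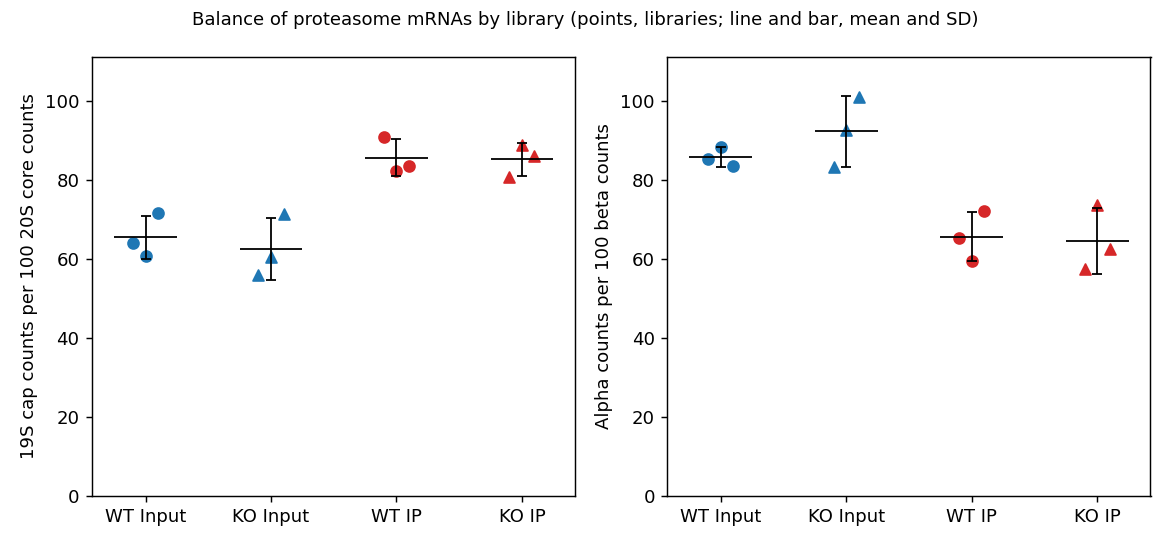
Counts of 19S cap genes per 100 counts of 20S core genes (left) and of alpha genes per 100 counts of beta genes (right), 1 point a library, with group mean and SD (n = 3). On the left the IP libraries lie at 80.6 to 90.9 and the Input libraries at 55.8 to 71.5; on the right the IP libraries lie at 57.4 to 73.6 and the Input libraries at 83.1 to 100.9.

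Transcript length moved with these differences. Across the 41 members, the mean IP to Input log2 ratio and the log10 transcript length had a Pearson r of 0.295 (Spearman rho 0.357), beside 0.299 (0.351) over 6594 genes. These correlations are across genes of the same libraries and are descriptions. The tested core genes had a median length of 1162.5 bases and the cap genes 1819. With the trend on length removed from all genes, the class medians became -0.15 for alpha, 0.32 for beta, 0.44 for the base ATPase genes, 0.58 for the other base genes and 0.31 for the lid. Among the activators, Psme1 moved to 0.02 and Psme4 to -0.09, which changed their signs, while Psme2 was at -0.20 and Psme3 at 0.38. Then 13 members were called, 10 higher and 3 lower, where 25.3% of all genes were called. Psma2, Psma3 and Psmd8 kept their calls as lower and Psmd1 and Psmd2 theirs as higher, and Psma5, Psma6, Psma7, Psmg4 and Psme2 lost theirs. Within a genotype, the KO calls of Psma6 (log2 -0.44, adjusted p = 0.138) and Psma1 (log2 -0.30, adjusted p = 0.348) and the WT call of Psmg4 (log2 -0.65, adjusted p = 0.256, edgeR) were lost as well. Psmb2, Psmb4, Psmb5, Psmb7, Psmc1, Psmc2, Psmc4 and Psmd6 were called higher with the trend removed and not without that step. The order of alpha below beta below base was seen with and without the trend, while the beta median moved from 0.00 to 0.32. The lid median, 0.23 before that step and so above beta, was level with beta after it, at 0.31. The ratios of counts inside one library were not adjusted for length.

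Markers of other cells also differed between the fractions. All 4 atrial markers (Nppa, Myl7, Myl4 and Sln) were lower in IP, with summed levels of 6334 to 11236 CPM in Input and 287 to 1044 in IP. Of 5 adipocyte markers, 2 of the 3 tested were lower in IP, and of 6 endothelial markers 3 were. Of 6 fibroblast markers 2 were higher and 1 lower in IP, with summed levels of 1091 to 1756 CPM in Input and 1389 to 1854 in IP. Of the 4 tested smooth muscle and pericyte markers 1 was higher and 1 lower, and of the 3 tested skeletal muscle markers 1 was lower. The 8 cardiomyocyte markers summed to similar levels in both fractions, and 2 were called higher in IP. In bulk RNA, fewer cells of a type and less RNA per cell cannot be told apart. The part of these cells in the proteasome differences was not tested.

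The catalytic beta subunits and their replacements were compared next. Psmb5 carries the chymotrypsin-like site, Psmb6 the caspase-like site and Psmb7 the trypsin-like site, and interferon gamma induces Psmb8, Psmb9 and Psmb10, which take their places in the immunoproteasome. Psmb11 does so in the thymus. The 4 sequences below are the 250 bases upstream of the RefSeq start (GRCm38.p6, 5′ to 3′ on the gene's strand) of 2 constitutive subunits and of the replacement of each, shown because the paired genes include some of the most and least counted members. Capitals mark the letters TGACNNNGC or its reverse complement GCNNNGTCA, the core of the antioxidant response element, a type of site that the proteasome regulator Nfe2l1 is known to use.
Psmb5: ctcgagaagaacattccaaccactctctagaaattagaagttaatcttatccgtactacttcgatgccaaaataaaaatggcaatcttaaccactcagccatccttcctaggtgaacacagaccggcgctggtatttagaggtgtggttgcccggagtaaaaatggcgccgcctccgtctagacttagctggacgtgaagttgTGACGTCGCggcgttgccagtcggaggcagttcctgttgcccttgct
Psmb8: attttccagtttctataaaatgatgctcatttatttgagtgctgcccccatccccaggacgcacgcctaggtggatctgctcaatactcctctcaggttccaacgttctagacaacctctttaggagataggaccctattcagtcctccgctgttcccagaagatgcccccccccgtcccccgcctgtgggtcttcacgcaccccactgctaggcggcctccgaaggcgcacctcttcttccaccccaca
Psmb6: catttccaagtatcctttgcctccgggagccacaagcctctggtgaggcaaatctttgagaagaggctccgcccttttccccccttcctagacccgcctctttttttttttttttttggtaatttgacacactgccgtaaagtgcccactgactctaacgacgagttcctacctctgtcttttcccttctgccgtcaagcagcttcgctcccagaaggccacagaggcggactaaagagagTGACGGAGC
Psmb9: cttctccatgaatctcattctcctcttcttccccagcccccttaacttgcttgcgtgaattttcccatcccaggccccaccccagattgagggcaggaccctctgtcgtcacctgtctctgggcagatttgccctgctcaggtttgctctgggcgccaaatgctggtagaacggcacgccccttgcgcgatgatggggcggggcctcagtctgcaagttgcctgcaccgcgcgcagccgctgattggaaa

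The windows are chr14:54617996-54618245, minus strand for Psmb5, chr17:34197945-34198194, plus strand for Psmb8, chr11:70525107-70525356, plus strand for Psmb6 and chr17:34187331-34187580, minus strand for Psmb9. The match starts 47 bases before the start site in Psmb5 and 9 bases before it in Psmb6, and neither replacement gene has one in its window. The pair of Psmb7 and Psmb10 is not shown, and neither of its genes is among the members with a match listed below. The pairs shown thus do not set constitutive subunits apart from replacements in general. A promoter was found for 40 of the 48 members, and 5 of them held the letters (Psmb5, Psmb6, Psmc6, Psmd12 and Psmd9), 12.5%, beside 11.5% of 27025 genes. The GC box GGGCGG or its reverse complement CCGCCC was in 22 members, 55.0%, beside 35.4% of all genes, and CCAAT or ATTGG was in 14, 35%, beside 37.5%. The core of the interferon-stimulated response element, searched on both strands, was in 3 (Psmb3, Psmd4 and Psmd9), 7.5%, beside 3.46%. The 27025 genes were not limited to those counted in these libraries, so these shares have no background of expressed genes beside them. A match is a description of letters and says nothing of binding.

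The constitutive genes were high in every library. Psmb5 was at 256, 242 and 221 CPM in WT Input, 204, 280.2 and 178 in KO Input, 269.6, 332 and 241 in WT IP and 342, 176 and 225 in KO IP. Psmb6 was at 263, 259 and 259.7 CPM in WT Input, 266, 236 and 146 in KO Input, 189, 228 and 202 in WT IP and 244, 178 and 198 in KO IP. In WT Psmb6 did not overlap between the fractions, although it did not pass (log2 -0.35 ± 0.19, adjusted p = 0.228, edgeR), while Psmb5 overlapped in both genotypes. Psmb7 was at 189.7, 183 and 221 CPM in WT Input, 208, 203 and 151 in KO Input, 245, 202 and 221 in WT IP and 192, 171 and 222 in KO IP, with overlap throughout.

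The replacements were rare. Psmb8 had 7, 5 and 4 counts in WT Input, 5, 1 and 1 in KO Input, 0, 1 and 0 in WT IP and 1, 2 and 2 in KO IP, 29 in all. That is 2.05 counts for every 100 of Psmb5 (exact 95% interval 1.37 to 2.96, counting error only). By group it was 5.71 in WT Input (3.22 to 9.44), 4.24 in KO Input (1.68 to 8.94), 0.187 in WT IP (0.00473 to 1.05) and 1.15 in KO IP (0.371 to 2.70). Psmb8 was thus counted mainly in Input, and the 3 WT Input libraries lay above all 6 IP libraries. It did not pass the filter on low counts. In a fit with no filter its mean log2 difference was -2.86 with an adjusted p of 0.00417, that in WT was -4.09 (adjusted p = 0.00909), and that in KO did not pass (adjusted p = 0.495, edgeR). The size of such a fitted change depends on the prior count.

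Psmb9 did not share that pattern. It had 7, 7 and 7 counts in WT Input, 6, 3 and 3 in KO Input, 7, 9 and 9 in WT IP and 7, 10 and 10 in KO IP, which is 6.89 for every 100 of Psmb6 (5.46 to 8.59). By group the ratio was 6.95, 7.32, 6.39 and 7.16, with intervals that all overlapped, and without the filter the adjusted p of IP against Input was 0.939. Psmb8 shares exon sequence with Gm20496 and Psmb9 with Tap1, both on the opposite strand. The summed level of 7 macrophage and leukocyte markers, cells in which these genes are known to be high, was 543 to 1061 CPM in Input and 677 to 859 in IP, with 0 of the 5 tested called, and their part in the result was not tested. Psmb10 had 0 counts in all 12 libraries beside 1156 of Psmb7, for which 3 counts would be 0.260 for every 100 and the exact 95% upper limit was 0.320 (counting error only), and Psmb11 had 0 as well. Since Actc1 is also listed at 0, a 0 in these files was not read as absence of the mRNA. The testis variant Psma8 had 4 counts in all.

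**Figure D5:**
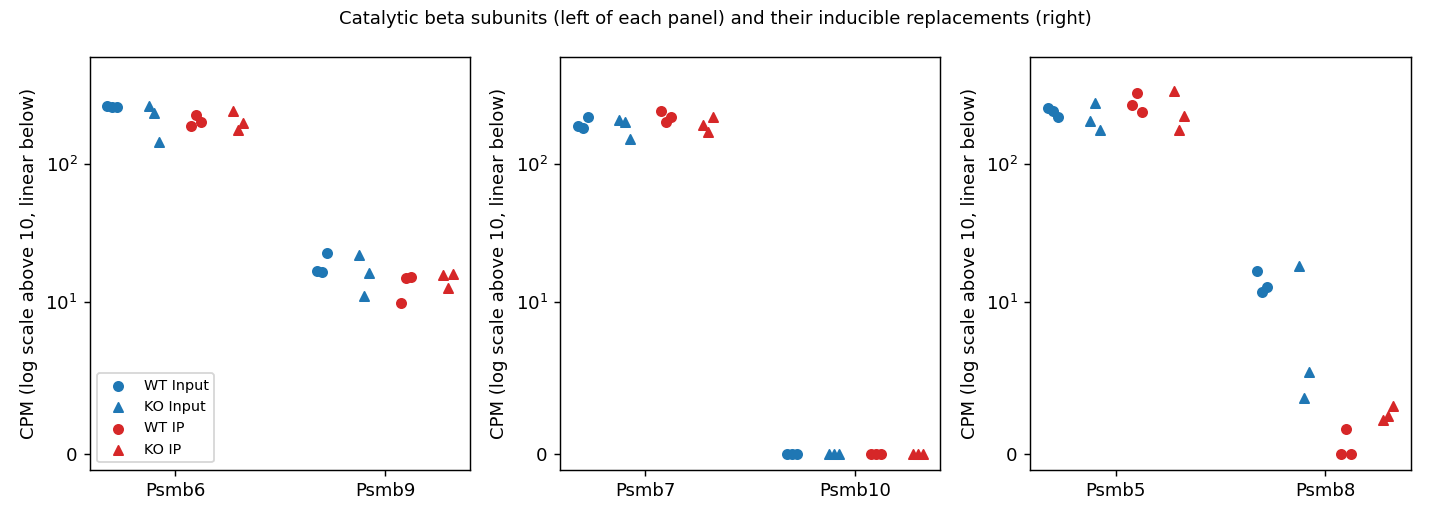
Level in each library (CPM, log scale above 10 and linear below) of the catalytic subunit genes Psmb6, Psmb7 and Psmb5 and of their replacements Psmb9, Psmb10 and Psmb8; blue marks Input, red IP, circles WT and triangles KO. The catalytic genes lie above 100 CPM in every library; Psmb9 lies at 9.93 to 22.4 CPM in both fractions, Psmb10 at 0, and Psmb8 reaches 18.3 CPM in Input and at most 3.17 CPM in IP.

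Of 30 other genes of the pathway chosen by name, 29 were found and 27 passed the filter. In KO against WT 0 were called in either fraction, and 2 and 1 had an unadjusted p under 0.05 in Input and IP. In IP against Input, 6 were higher and 6 lower in the mean of both genotypes, against the same background shares as above. Higher were Ddi2, a protease that activates Nfe2l1 (log2 1.02), the ubiquitin shuttles Rad23b (0.83), Ubqln2 (0.83) and Ubqln4 (0.72), the proteasome adaptor Ecpas (0.70) and the unfolding ATPase Vcp (0.56). Among the lower genes were Rps27a (-0.67), which encodes ubiquitin fused to a ribosomal protein, Akirin2 (-0.77), which imports proteasomes into the nucleus, the small lid subunit Sem1 (-0.49) and the polyubiquitin gene Ubb (-0.33). Nfe2l1 itself had a log2 value of 0.31 and did not pass (adjusted p = 0.0612). Pomp, the core maturation factor, was at -0.08 (adjusted p = 0.731).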

How the data were processed

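The authors deposited 1 table of integer read counts per gene for each of 12 nanopore direct cDNA libraries, and these counts were used as deposited. The submitters' processing notes name minimap2 2.14, DESeq2 1.34.0 and the build GRCm38 with no role, and the sources used here do not give the counting rule. Of 55401 gene IDs, 55141 matched GENCODE M21 (GRCm38) without their version, which gave names, coordinates and lengths (longest transcript). 38803 genes were 0 in every library.

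After filterByExpr (minimum count 10, minimum total 15), counts were TMM-scaled and fitted with 1 mean per group over all 12 libraries, in edgeR 4.0.16 (R 4.3.3, limma 3.58.1), with its quasi-likelihood test and Benjamini-Hochberg adjustment over the 6596 genes of each contrast. A change was called at an adjusted p under 0.05. Standard errors are those of log2 fold changes. The common dispersion of 0.0333 is a coefficient of variation of 18.2%. With 3 libraries against 3, an exact permutation test of one gene cannot go below p = 0.10. On simulated counts (6197 genes, KO against WT in IP) the test recovered 45.4% of genes changed by 1 on the log2 scale and 95.6% of those changed by 2, with 9 false calls. The simulation gave every gene the same dispersion and no difference between Input and IP other than the changes set. Recovery in the real libraries may therefore be lower. On the TMM-scaled CPM used here, a count of 3 stands for 3.74 to 16.2 CPM. Intervals of ratios cover counting error only.

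The members, role classes, pathway genes and markers were chosen with earlier results of these data known. Some of the pathway genes are counted but not reported here by name. Library values are given for 29 members by a rule: called members, catalytic subunits and replacements, activators, the inhibitor and, per class, the member with the highest level in mean CPM and the one with the smallest p. Other members named (such as Psmc6, Psmd6 and Psmd12) were picked with their values in view. The alternatives were DESeq2 size factors and test (DESeq2 1.42.0), library totals, no filter, at least 30 counts in 3 libraries, limma-voom, only the libraries compared, a replicate block, thinning of each library to 169359 counts, globin genes left out, a length trend removed (loess span 0.5), each library left out in turn and, chosen after seeing the data, 2 sets of libraries left out together. No pairing was used, because replicate numbers are not stated to pair libraries. Same-numbered libraries correlated at -0.115 to 0.0423 in their deviations from group means. With so few counts per gene, values near 0 cannot show whether libraries were paired. Exons shared with other genes were taken from GENCODE, and promoters from RefSeq (GRCm38.p6).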

Additional observations from a re-analysis of the deposited data

How the results depend on the processing

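Under every alternative run (25 in all, fewer where one could not apply), 0 members were called in KO against WT in both fractions and in the interaction. In IP against Input in WT the count of 4 fell to 2 with the DESeq2 test and to 2 without the 3 libraries with the most globin counts or the lowest total. In KO the count of 5 became 3 with no count filter, 3 in a fit of only the libraries compared and 3 in libraries thinned to the smallest total. In the mean of both genotypes the count of 10 became 6 in thinned libraries, and removing the length trend gave 13. Apart from the length step, counts of members under the alternatives are given without the share of all genes called in the same fit. A change in such a count alone does not set the members apart from other genes. The members' median log2 difference moved by more than its spread between libraries with library totals, to 0.08 for KO against WT in IP and 0.16 for IP against Input in KO. Removing the length trend moved it to 0.23 in WT, 0.22 in KO and 0.27 in the mean. Without the 3 libraries the interaction median was -0.17. The cause of these shifts was not tested. Leaving out each library in turn gave 2 to 5 calls in WT, 2 to 6 in KO, 7 to 11 in the mean and 0 in KO against WT and in the interaction. The medians then ran from -0.12 to 0.05 for KO against WT in Input, -0.12 to 0.02 in IP, -0.03 to 0.18 for IP against Input in WT, -0.06 to 0.11 in KO, 0.04 to 0.12 in the mean and -0.14 to 0.11 for the interaction. No result changed its sign after being called.

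Replicate numbers are not stated to pair libraries. With the replicate number as a block, 3 members were called in WT, 5 in KO, 9 in the mean and 0 in KO against WT. The share of all genes called in that fit is not given here. The calls of Psmg4 in WT and Psma5 in the mean were lost. The smallest library held 169359 counts, so a count of 3 there stands for 16.2 CPM, near the level of the rarer chaperones and replacement subunits.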
